A study of Mus musculus with 10 samples.

Results

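Cells keep their internal pH by moving protons, bicarbonate and lactate across membranes, and 9 genes of this machinery were followed in mouse Lewis lung carcinoma (LLC) cells exposed to acid. They were 2 monocarboxylate transporters (Slc16a1 and Slc16a3), 3 bicarbonate transporters (Slc4a2, Slc4a3 and Slc4a4), 1 sodium/proton exchanger (Slc9a8) and 3 carbonic anhydrases (Car2, Car9 and Car12). They were chosen by name, with earlier results of these data known. Every probe set that carried 1 of these symbols alone was taken, which gave 20 of the 45101 probe sets and 9 of the 18193 genes on the array. The LLC cells, a lung tumour line labelled C57BL/6, stably expressed the proton-sensing receptor TDAG8 (Gpr65), here the TDAG8 line, or carried the control vector, here the control line. All cells were serum-starved for 12 h in medium with albumin at pH 7.4. Each line was then kept at pH 6.4 or at pH 7.4 for 4 or 12 h, or was collected before treatment. Each of the 10 arrays held RNA mixed from 4 cultures, with 1 array per line and condition. Neither the promoter of the construct nor whether a line is 1 clone is stated in the labels.

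The monocarboxylate transporters Slc16a1 and Slc16a3 carry lactate together with a proton, so they can remove both products of glycolysis from a tumour cell. Anion exchangers of the Slc4 family swap chloride for bicarbonate and in most settings acidify the cell, whereas sodium/bicarbonate cotransporters and sodium/proton exchangers usually raise its pH. Carbonic anhydrases interconvert carbon dioxide and bicarbonate, in the cytosol (Car2) or at the outer face of the plasma membrane (Car9 and Car12), and Car9 and Slc16a3 are known targets of the hypoxia-inducible factor.

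The tumour cell markers did not all read high. Of the 4 epithelial markers, Krt8 had signals of 1242 to 2648 and Krt18 of 21.6 to 194.4, while Epcam stayed at or below 45.1 and Cdh1 at or below 5.3. Of the 5 mesenchymal genes, Vim had signals of 6140 to 9227, Dcn of 330 to 1309 and Pdgfra of 264.7 to 1617.4. The mesenchymal genes Cdh2 and Col1a1 stayed at or below 4.2 and 6.4. No leukocyte (5 measured), endothelial (4) or erythroid (2) marker reached a signal of 50 on any array. The summed leukocyte markers were 29.8 to 39.5 at pH 6.4 and 17.6 to 32.3 at pH 7.4, and their part in any result was not tested. The Gpr65 probe set read 0.3 to 5.3 over all arrays of both lines and so gives no check of which line carries the receptor. Array medians lay between 11.7 and 13.8.

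Promoter windows from RefSeq (GRCm38.p6, all plus strand, 250 bases before to 50 after a transcription start) were found for 8 of the 9 genes, in 10 windows. They are shown for the 2 genes that passed a pH test at 12 h (Slc4a2 and Slc4a3). Those of Slc16a3 and Car9, named above as hypoxia targets, are also shown. Capitals mark ACGTG or GCGTG, the core of the hypoxia-response element, or TGACG, the short core of the cAMP-response element, each read on both strands; in the Slc16a3 window TGACG overlaps an ACGTG. TDAG8 is known to signal through cAMP, which is why the last motif was searched.
Slc4a2, first window, chr5:24424982-24425281: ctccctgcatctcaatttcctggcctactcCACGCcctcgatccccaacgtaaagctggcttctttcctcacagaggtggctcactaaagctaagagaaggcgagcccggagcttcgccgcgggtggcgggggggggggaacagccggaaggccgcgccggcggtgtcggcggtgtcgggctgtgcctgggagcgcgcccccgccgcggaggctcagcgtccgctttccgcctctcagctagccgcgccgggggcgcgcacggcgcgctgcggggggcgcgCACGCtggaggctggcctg
Slc4a2, other window, chr5:24425594-24425893: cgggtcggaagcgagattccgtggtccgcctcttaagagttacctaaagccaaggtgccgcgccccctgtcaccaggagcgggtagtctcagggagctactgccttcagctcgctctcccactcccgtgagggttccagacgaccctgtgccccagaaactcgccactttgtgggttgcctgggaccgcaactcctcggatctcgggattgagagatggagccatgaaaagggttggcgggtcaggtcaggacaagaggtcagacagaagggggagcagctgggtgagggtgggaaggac
Slc4a3, chr1:75546212-75546511: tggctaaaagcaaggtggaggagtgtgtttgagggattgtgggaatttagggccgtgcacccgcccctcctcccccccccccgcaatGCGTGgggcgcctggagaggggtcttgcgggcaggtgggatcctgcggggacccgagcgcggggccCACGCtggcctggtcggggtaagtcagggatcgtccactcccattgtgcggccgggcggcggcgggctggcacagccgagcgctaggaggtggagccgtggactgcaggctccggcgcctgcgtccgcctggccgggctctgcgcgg
Slc16a3, chr11:120948817-120949116: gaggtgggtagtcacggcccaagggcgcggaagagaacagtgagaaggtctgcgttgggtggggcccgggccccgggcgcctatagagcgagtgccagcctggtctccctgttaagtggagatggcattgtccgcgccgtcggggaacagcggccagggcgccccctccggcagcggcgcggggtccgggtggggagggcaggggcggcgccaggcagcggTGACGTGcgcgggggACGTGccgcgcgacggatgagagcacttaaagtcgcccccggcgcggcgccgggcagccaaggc
Car9, chr4:43506776-43507075: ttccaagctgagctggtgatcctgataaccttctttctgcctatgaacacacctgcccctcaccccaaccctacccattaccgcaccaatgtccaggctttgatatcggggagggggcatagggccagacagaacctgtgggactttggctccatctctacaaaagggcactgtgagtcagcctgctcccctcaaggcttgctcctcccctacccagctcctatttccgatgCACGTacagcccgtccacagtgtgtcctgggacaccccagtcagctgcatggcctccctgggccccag
The first Slc4a2 window and the Slc4a3 window each held 2 GCGTG sites and the other Slc4a2 window none. The Car9 window held 1 ACGTG and the Slc16a3 window 2 ACGTG and 1 TGACG. Among the windows not shown, that of Slc16a1, with a pH difference of -0.11, held 3 ACGTG and 2 GCGTG. The first Slc4a4 window held 1 GCGTG and the Slc9a8 window 1 TGACG. The Car12 window and the other Slc4a4 window held none of these motifs. Of all 32851 RefSeq promoter windows of this length, 43.8% held ACGTG or GCGTG and 20.8% held TGACG. The full cAMP-response element TGACGTCA stood in 1.79% of all windows and in 0 of the 10. Such matches describe letters only. In the RefSeq annotation the Slc4a2 gene overlaps the pseudogene LOC115490257, Slc16a3 overlaps Csnk1d, and Car9 overlaps Arhgef39 and Tpm2. The windows shown were rich in G and C, against a median of 52.7% over all windows. The share was 72.0% in the first Slc4a2 window, 71.7% in Slc4a3, 73.3% in Slc16a3 and 58.3% in Car9.

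Of the 9 genes, 3 were expressed by the rule used here, a deposited signal of at least 50 on every array: Slc16a1, Slc16a3 and Slc4a2. A further 5 (Slc4a3, Slc9a8, Car2, Car9 and Car12) had a probe set whose mean passed the filter on low values (a signal of about 6.61, the 40th percentile of the probe sets' means), and none of these probe sets reached 50 on any array. Slc4a4, the sodium/bicarbonate cotransporter gene, was below that filter in all 5 of its probe sets, whose signals ran from 0.3 to 14.8, and was not tested. By probe set, 3 were expressed, 8 were low and 9 were below the filter. With the limit at 100 in place of 50, 2 genes remained expressed on all arrays, since Slc4a2 dropped under 100 on the acid 12 h arrays. The deposited table holds no detection calls, so a low signal is not a statement that the gene is silent.

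**Figure D1:**
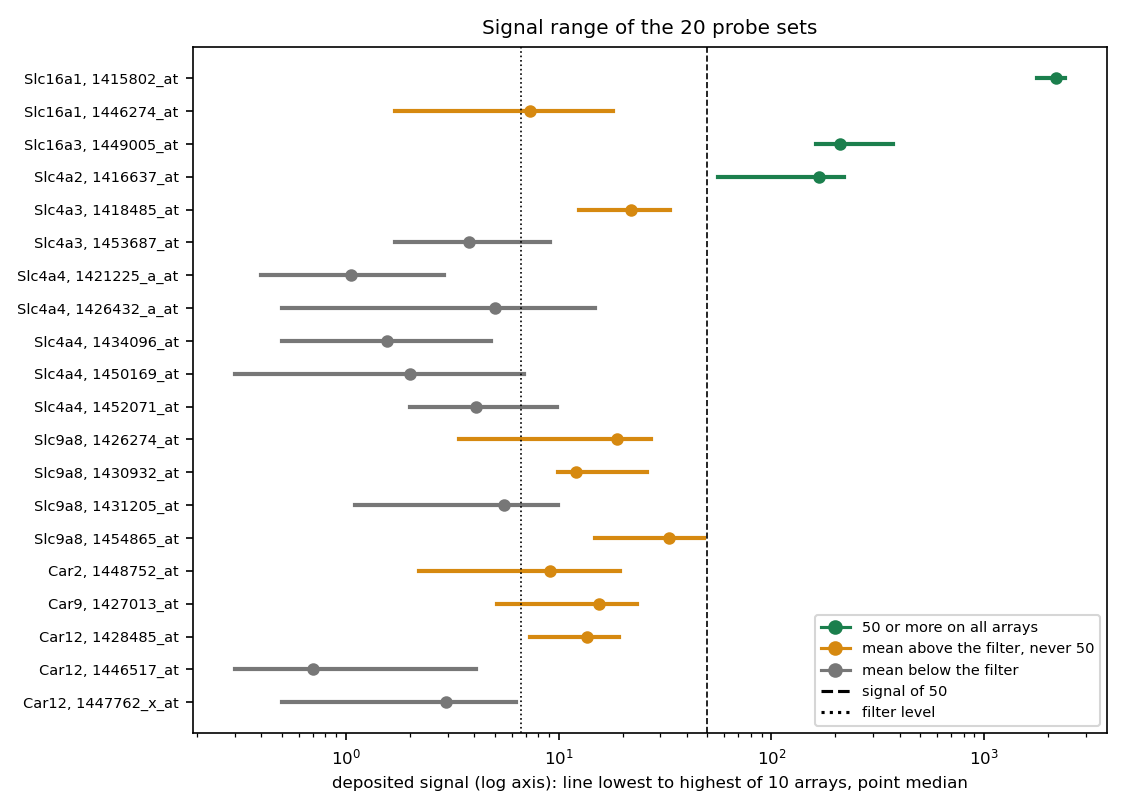
Deposited signal (log axis) of the 20 probe sets, 1 row each, with a line from the lowest to the highest of the 10 arrays and a point at the median; the dashed line marks a signal of 50, the dotted line the filter at about 6.61, and colours the 3 classes. The brightest probe sets of Slc16a1, Slc16a3 and Slc4a2 lie wholly above 50, and the medians of all 5 Slc4a4 probe sets lie below the filter.

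**Figure D2:**
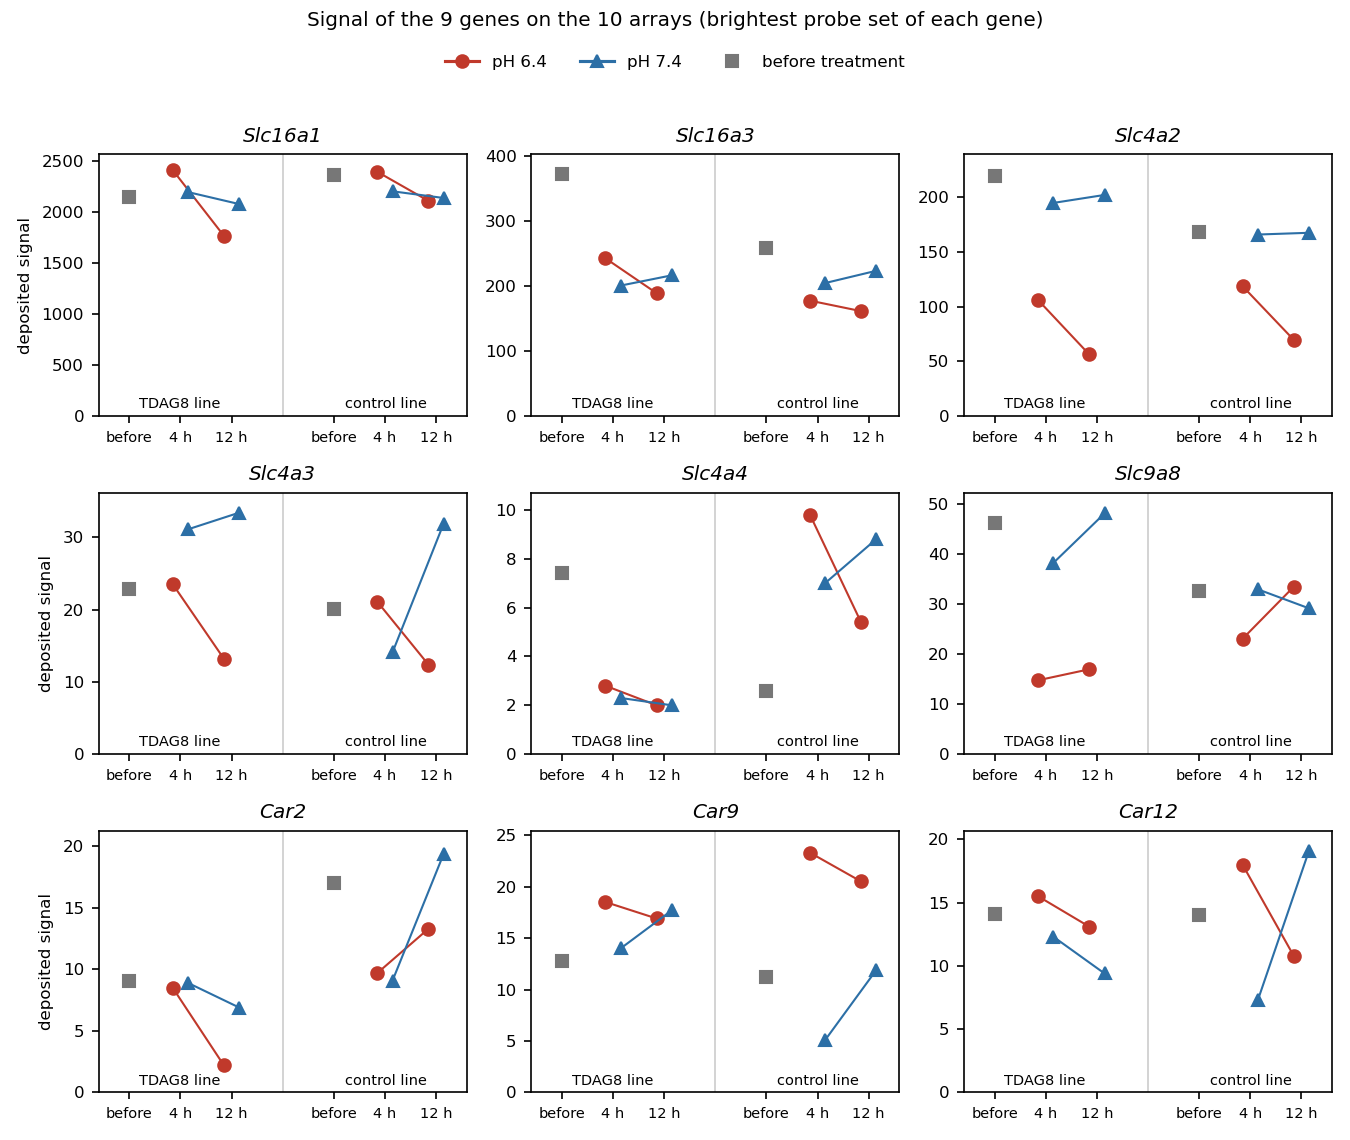
Deposited signal (linear axis from 0, a scale of its own per gene) on every array for the probe set with the highest mean of each of the 9 genes, before treatment and at 4 h and 12 h, with TDAG8 arrays on the left and control arrays on the right of each panel. Slc4a2 is lower on all 4 arrays at pH 6.4 (circles) than on any of the 4 at pH 7.4 (triangles), while Slc16a1 stays between 1767 and 2412.

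Slc16a1, the widely expressed lactate transporter, read 2411.5 at 4 h and 1767.4 at 12 h at pH 6.4 in TDAG8 cells, against 2196.1 and 2078.6 at pH 7.4. In control cells it read 2395.7 and 2110.4 at pH 6.4, against 2203.8 and 2138.3 at pH 7.4, and before treatment it read 2146.5 (TDAG8) and 2365.5 (control). The groups overlapped. The pH difference, pH 6.4 minus pH 7.4 as the mean of the 4 matched pairs of arrays on the log2(signal + 2.4) scale, was -0.11 (SE 0.11, 95% interval -0.38 to 0.16, adjusted p = 0.521, limma), and it was 0.040 with the arrays centred on their medians and 0.00064 with the values as deposited. The line difference, TDAG8 minus control over 5 pairs, was -0.0040 (interval -0.15 to 0.14). A second Slc16a1 probe set was dim, at 1.7 to 18. Its pair differences were -0.53 at 4 h and 0.93 at 12 h in TDAG8 cells, and -0.17 and 0.76 in control cells. Bsg, the chaperone that brings this transporter to the membrane, read 2202 to 2966 and had a pH difference of -0.04. The other listed chaperones, Emb and Nptn, had -0.30 and -0.54 (adjusted p = 0.196 and 0.0616, limma). At 12 h Emb had -0.46 (adjusted p = 0.0989, limma) and Nptn -0.75 (adjusted p = 0.0226, limma), where 12.3% of all genes were called lower.

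Slc16a3, the lactate exporter typical of glycolytic cells, read 243.0 and 189.3 at pH 6.4 in TDAG8 cells, against 201.0 and 216.8 at pH 7.4. Control cells gave 177.8 and 161.6 at pH 6.4, against 204.9 and 223.8 at pH 7.4. The groups overlapped, and the pairs disagreed in sign (0.35 at 4 h and -0.23 at 12 h in TDAG8 cells, -0.08 and -0.45 in control cells). The mean was -0.10 (SE 0.16, interval -0.50 to 0.30, adjusted p = 0.703), and it was 0.01 without the control 12 h pair and -0.25 without the TDAG8 4 h pair. Its highest readings were before treatment, 373.3 in TDAG8 cells and 259.6 in control cells. The array at pH 7.4 for 4 h was lower than the one before treatment by a log2 difference of -0.89 in TDAG8 cells and -0.35 in control cells. These are differences between single arrays without a test. In the same contrast 3.74% and 4.80% of all tested genes in TDAG8 and control cells were lower by at least 0.58, a limit the control difference of Slc16a3 did not reach. The median over the 8 genes was -0.13 in TDAG8 cells and -0.38 in control cells, beside 0.01 and -0.01 over all genes. The lowest control differences were those of the dim genes Car9 (-0.73), Car2 (-0.66) and Car12 (-0.64). The control array at pH 7.4 for 4 h also had the lowest median of all arrays (11.7).

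Slc4a2, an anion exchanger (AE2) that exports bicarbonate in exchange for chloride, showed the largest pH difference of the 8 genes tested. In TDAG8 cells it read 106.0 at 4 h and 56.3 at 12 h at pH 6.4, against 194.8 and 202.1 at pH 7.4. In control cells it read 118.7 and 69.7 at pH 6.4, against 165.9 and 167.5 at pH 7.4. Before treatment the signals were 219.6 in TDAG8 cells and 168.2 in control cells. All 4 acid arrays lay below all 4 arrays at pH 7.4, and Slc4a2 was the 1 gene of the 8 whose groups did not overlap in this direction, beside 13.9% of all tested genes. The pair differences were -0.74 and -1.77 in TDAG8 cells at 4 h and 12 h, and -0.34 and -1.16 in control cells.

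Averaged over the 4 pairs, Slc4a2 was 2.00-fold lower at pH 6.4 (log2 difference -1.0, SE 0.25, interval -1.61 to -0.39), with an unadjusted p of 0.00765 and an adjusted p of 0.0595 over all 12161 genes (limma), which misses the threshold of 0.05. Across the 16 alternative settings the adjusted p ran from 0.0197 to 0.183, and Slc4a2 passed in 8 of them, none of which left out a pair. Fits with a pair left out called 0 to 278 of the 12161 genes, against 1220 with all pairs. With each pair left out in turn the difference lay between -1.22 and -0.74. In the array design the signal is a share of the labelled RNA, so less Slc4a2 RNA per cell and fewer cells that carry it cannot be told apart.

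At 12 h alone Slc4a2 fell 2.76-fold at pH 6.4 (log2 difference -1.46, SE 0.21, adjusted p = 0.0225, limma), while at 4 h the difference was -0.54 (SE 0.21, adjusted p = 0.189). At pH 6.4 the 12 h array was lower than the 4 h array by -0.97 in TDAG8 cells and -0.81 in control cells, and at pH 7.4 the same differences were 0.06 and 0.01. The test of the pH difference at 12 h against that at 4 h gave -0.92 (SE 0.30, adjusted p = 0.166), and no gene of the 12161 passed it. At an unadjusted p under 0.05 there were 2 of the 8 (Slc4a2 and Slc4a3) and 25.8% of all genes. The call at 12 h was lost with any one of the 4 pairs left out. Without either 4 h pair the adjusted p was 0.0513 (limma), where 781 of the 12161 genes passed, against 2843 with all pairs. Without a 12 h pair only 1 pair is left at 12 h, so such a fit cannot decide the call. With no filter the call was also lost (adjusted p = 0.0696), and no gene passed. The Slc4a2 difference at 12 h stayed -1.46 without either 4 h pair, and was -1.16 without the TDAG8 12 h pair and -1.77 without the control 12 h pair.

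Slc4a3, a second anion exchanger (AE3), best known from heart and brain, read 23.5 at 4 h and 13.2 at 12 h at pH 6.4 in TDAG8 cells, against 31.1 and 33.4 at pH 7.4. Control cells gave 21.1 and 12.4 at pH 6.4, against 14.1 and 31.9 at pH 7.4, with 22.8 (TDAG8) and 20.1 (control) before treatment. The 2 acid 12 h arrays were the lowest of all 10. At 12 h it fell 2.07-fold (log2 difference -1.05, SE 0.20, adjusted p = 0.0342, limma), whereas at 4 h the difference was 0.06 and over all pairs -0.49 (SE 0.28, adjusted p = 0.274). The overall difference was -0.79 without the control 4 h pair, -0.30 without the TDAG8 12 h pair and -0.31 without the control 12 h pair. Without the TDAG8 or the control 12 h pair the difference at 12 h was -1.04 or -1.06, from the 1 pair left, and the call was lost. The second probe set of the gene stayed below the filter at 1.7 to 9.1. The call was also lost with no filter (0.0917) and with the mean of both probe sets (0.0634).

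**Figure D3:**
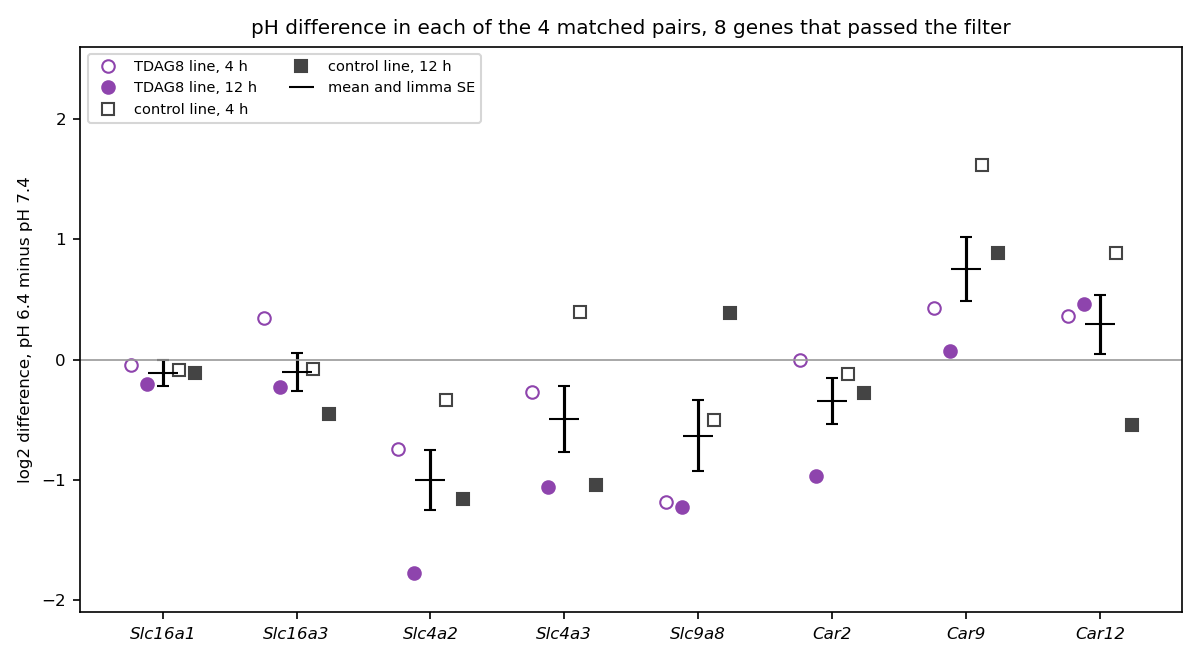
Log2 difference, pH 6.4 minus pH 7.4, in each of the 4 matched pairs (symbols, quantile-normalised values) for the 8 genes tested, with the mean and its limma SE (bars). All 4 Slc4a2 pairs lie below 0, the 12 h pair of each line lower than its 4 h pair, and all 4 Car9 pairs lie above 0.

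Slc9a8, a sodium/proton exchanger found mainly on internal membranes and in epithelia, read 14.8 and 17.0 at pH 6.4 in TDAG8 cells, against 38.3 and 48.2 at pH 7.4. Control cells gave 23.1 and 33.5 at pH 6.4, against 33.0 and 29.2 at pH 7.4, with 46.2 (TDAG8) and 32.7 (control) before treatment. Only the TDAG8 arrays separated by pH. The mean difference was -0.63 (SE 0.30, adjusted p = 0.203), and the interaction of pH and line, the TDAG8 response minus the control response, was -1.15 (SE 0.39, adjusted p = 0.9999). Without the control 12 h pair the mean was -0.97 and the interaction -0.70, and averaging its 4 probe sets gave an interaction of -0.16. The other probe sets of Slc9a8 that passed the filter gave 0.21 and 0.50 (adjusted p = 0.112 for the second, SE 0.17), opposite in sign to the brightest, so the direction of this gene depends on the probe set.

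Car9, the hypoxia-inducible carbonic anhydrase of the tumour cell surface, read 18.5 and 16.9 at pH 6.4 in TDAG8 cells, against 14 and 17.7 at pH 7.4. In control cells it read 23.3 and 20.5 at pH 6.4, against 5.1 and 11.9 at pH 7.4, and before treatment 12.8 (TDAG8) and 11.2 (control). The groups overlapped by 1 array of each pH. The mean difference was 0.75 (SE 0.27, interval 0.09 to 1.41, adjusted p = 0.122). After quantile normalisation Car9 was higher in 4 of 4 pairs (0.07 in the TDAG8 12 h pair, where the deposited signal was lower), and 21.6% of all tested genes were higher in every pair. It missed the threshold under all 15 alternatives (adjusted p 0.0669 to 0.287). Without the control 4 h pair the difference was 0.46. That pair holds the array with the lowest median of all (11.7), the control line at pH 7.4 for 4 h, which gave the lowest reading of 3 of the 11 probe sets above the filter, as many as the TDAG8 array at pH 6.4 for 12 h. The interaction with the line was -1.0 (SE 0.37, adjusted p = 0.9999), and -0.64 without the control 4 h pair.

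Car12, the other carbonic anhydrase of the cell surface, read 15.5 and 13.1 at pH 6.4 in TDAG8 cells, against 12.3 and 9.4 at pH 7.4, and 18 and 10.8 at pH 6.4 in control cells, against 7.3 and 19.1 at pH 7.4. Before treatment it read 14.1 (TDAG8) and 14 (control). The control pairs went opposite ways and the mean was 0.29 (SE 0.24, adjusted p = 0.448), with 0.10 without the control 4 h pair and 0.57 without the control 12 h pair.

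Car2, the cytosolic carbonic anhydrase, read 8.5 and 2.2 at pH 6.4 in TDAG8 cells, against 8.9 and 6.9 at pH 7.4. In control cells it read 9.7 and 13.3 at pH 6.4, against 9.1 and 19.4 at pH 7.4, and before treatment 9.1 (TDAG8) and 17.0 (control). The pH difference was -0.34 (SE 0.19, adjusted p = 0.268), and at 12 h -0.62 (SE 0.20, adjusted p = 0.0982). Without the TDAG8 12 h pair the pH difference was -0.13. It was the member that differed most between the lines, by -0.82 (SE 0.26, interval -1.45 to -0.20, adjusted p = 0.160, lower in 5 of 5 pairs). These signals are close to the pseudocount, and with a pseudocount of 32 the line difference was -0.23.

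Across the group, 0 of the 8 genes passed the comparison of pH 6.4 with pH 7.4 over all pairs (limma, adjusted p under 0.05), where 10% of all tested genes did. At an unadjusted p under 0.05 there were 2 (Slc4a2 and Car9), where 31.9% of all tested genes stood. Limma with a variance trend and robust estimation called 1 (Slc4a2, adjusted p = 0.0266) and 2076 of the 12161 genes. The median difference of the 8 was -0.23, against -0.0026 over all tested genes. At 4 h 0 of 8 passed, also at the unadjusted threshold, beside 4.65% of all genes (1.19% higher and 3.46% lower). On quantile-normalised values 3 of the 8 (Slc4a2, Car2 and Slc16a1) were lower in all 4 pairs, beside 20.6% of all genes. On deposited signals that held for Slc4a2, while Slc16a1 was higher in both 4 h pairs and Car2 in the control 4 h pair, and the Slc16a1 mean turned above 0 with median centring. At 12 h 2 of 8 passed, 25%, both lower, beside 23.4% of all genes in either direction and 12.3% lower, so the share of calls was near that of the whole array.

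None of the 8 genes passed the same test between the lines (limma, 0 of 8), beside 1.20% of all genes, 0.674% higher and 0.526% lower. At an unadjusted p under 0.05 there was 1 of 8 (Car2), beside 20.8% of all genes. In 0 of the 8 did the signals of the lines stay apart, beside 1.97% of all genes, and Car2 came closest, with 2.2 to 9.1 in TDAG8 cells and 9.1 to 19.4 in control cells. The line difference was 0.20 for Slc16a3 (interval -0.06 to 0.45) and 0.06 for Slc4a2 (interval -0.23 to 0.36). The test of whether the pH response differed between the lines called 0 of 8 and 0.00% of all genes, with 2 of 8 (Slc9a8 and Car9) and 2.79% at an unadjusted p under 0.05. For Slc4a2 the pH difference was -1.26 (SE 0.35) in TDAG8 cells and -0.75 (SE 0.35) in control cells, and the difference between them was -0.51 (SE 0.50, interval -1.80 to 0.78). It was 0.0026 without the TDAG8 12 h pair, -0.10 without the control 4 h pair, -0.92 without the control 12 h pair and -1.02 without the TDAG8 4 h pair. The 12 h arrays against the 4 h arrays gave 0 of 8, none at an unadjusted p under 0.05, beside 0.00% and 11.7% of all genes.

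Other genes of acid-base transport were read from lists by family, chosen with earlier results of these data known. Of 62 on the array, 30 passed the filter, of which 2 rose and 1 fell at pH 6.4 (median -0.04), beside 4.47% higher and 5.56% lower of all genes. Among 7 tested carbonic anhydrases, Car6, a secreted form known from saliva, fell by 1.68 on the log2 scale (SE 0.27, adjusted p = 0.0265, limma). It read 47.0 and 40.1 at pH 6.4 in TDAG8 cells, against 93.9 and 187.7 at pH 7.4, and 38.5 and 41.4 at pH 6.4 in control cells, against 109.8 and 244.3 at pH 7.4. The acid readings were below, and those at pH 7.4 above, the readings before treatment (67.5 in TDAG8 cells and 60.9 in control cells).

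Of 7 monocarboxylate transporters and chaperones, Slc16a6 rose by 2.04 (SE 0.28, adjusted p = 0.0205). It read 68.5 and 32.5 at pH 6.4 in TDAG8 cells, against 14 and 15.4 at pH 7.4, and 128.4 and 66.9 at pH 6.4 in control cells, against 17.0 and 17.2 at pH 7.4. Slc16a6 was the 1 gene of the 30 that passed at 4 h. Of 8 tested genes in the list of sodium/proton exchangers and their regulators, such as the scaffold Slc9a3r1, Slc9b1 rose by 0.78 (SE 0.13, adjusted p = 0.0291), but its 5 probe sets disagreed in sign and their mean gave 0.14 (adjusted p = 0.457). Calls of all 3 genes were lost with no filter on low values (adjusted p 0.0525 to 0.0783). Leaving out any 1 pair also ended the calls of Car6 and Slc9b1, and 3 of the 4 pairs that of Slc16a6. Such fits called only 0 to 278 of the 12161 genes, against 1220 with all pairs, so the loss is not particular to these genes. Their differences ran from -1.95 to -1.44 for Car6, 0.71 to 0.88 for Slc9b1 and 1.78 to 2.36 for Slc16a6.

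None of the 3 tested bicarbonate transporters outside the group and none of the 5 proton pumps, channels and sensors passed. The brightest of them were Slc4a11 (0.21, SE 0.12, adjusted p = 0.285) and the voltage-gated proton channel Hvcn1. Hvcn1 read 22.2 and 12.3 at pH 6.4 in TDAG8 cells, against 49.5 and 47.6 at pH 7.4, and 23.5 and 1.4 at pH 6.4 in control cells, against 34.5 and 35.9 at pH 7.4. Its mean difference was -1.60 (SE 0.44, adjusted p = 0.0747) and at 12 h it fell by 2.42 (adjusted p = 0.0308). At 12 h 4 of the 30 genes rose and 4 fell, beside 11.1% higher and 12.3% lower of all genes.

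**Figure D4:**
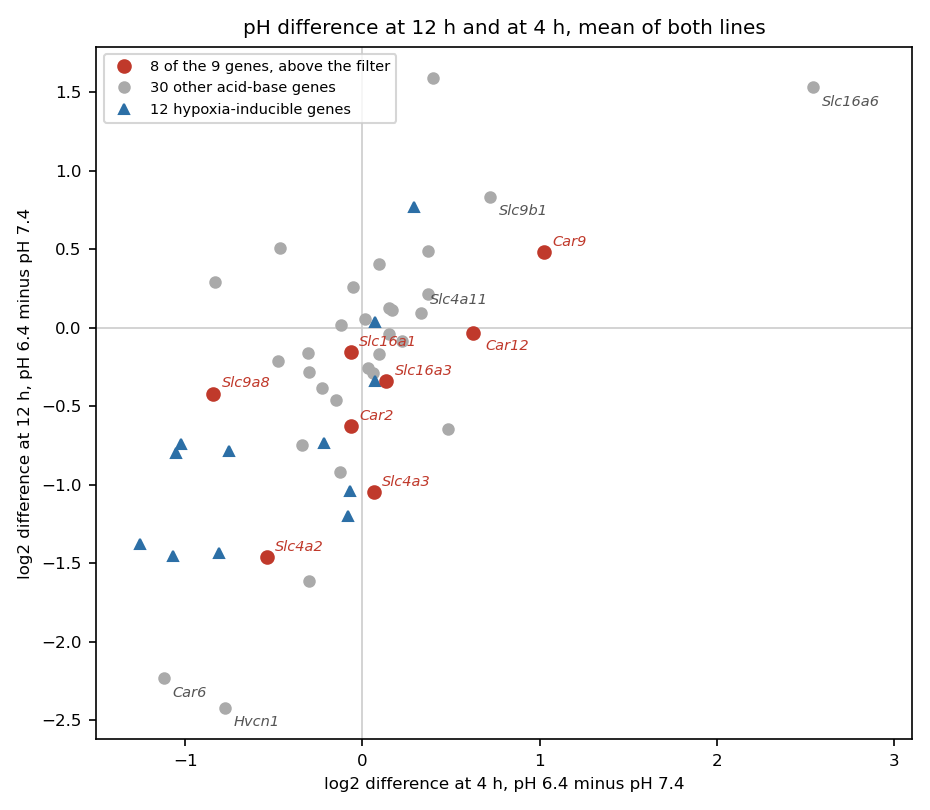
Log2 difference, pH 6.4 minus pH 7.4, at 12 h (vertical) against 4 h (horizontal), each the mean of both lines, for the 8 genes, 30 other acid-base genes and 12 hypoxia-inducible genes. Slc4a2 lies at -0.54 and -1.46, Slc4a3 at 0.06 and -1.05, and Slc16a6 at the far right.

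Car9 and Slc16a3 are hypoxia targets, and 12 other genes induced by hypoxia were read beside them. Of these 5 fell and 0 rose at pH 6.4 (median -0.70), beside 5.56% lower and 4.47% higher of all genes. This list was chosen with earlier results of these data known, so the shares describe it only. Genes were named from it after their values were seen. Egln3 had -1.32 (adjusted p = 0.0144, limma) and Bnip3 -1.12 (adjusted p = 0.0274, limma), while Car9 had 0.75 and Slc16a3 -0.10, neither passing. Among the 12, Adm (0.53, adjusted p = 0.111) and Pgk1 (0.05, adjusted p = 0.760) also had positive differences without passing. Slc4a2, which is not counted among those genes, had the 3 most alike profiles over the 10 arrays in Ahnak (Pearson r = 0.99), Zfp638 (0.98) and Ccdc25 (0.98). The arrays share lines, times and pH, and other probe sets of Ahnak had differences of opposite sign (mean pH differences of 0.88, 0.50 and 0.18, against -0.62 for the brightest).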

How the data were processed

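RNA of LLC cells was measured on 10 Affymetrix Mouse430 2.0 arrays, per the labels, from 2 µg of total RNA labelled with biotin. Each deposited value is a linear intensity of 1 probe set; the authors' summary software is not given in the sources used here. A 2% trimmed mean of 100 on every array shows scaling to a common target. Genes were named by GEO's platform annotation; 932 probe sets with several symbols and 9160 with none were left out.

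The arrays were quantile normalised and taken as log2(signal + 2.4), 2.4 being the 20th percentile. Each gene had its probe set with the highest mean, and the filter left 12161 genes. With 1 array per condition, matched pairs stood in for replicates: limma 3.58.1 in R 4.3.3 was run with line and time as a block for pH (3 residual degrees of freedom), condition as a block for the line (4), and pH terms by time or by line (2), with Benjamini-Hochberg adjustment over all genes tested. Each p-value reflects the scatter of the pairs, with the variance of each gene drawn by limma toward that of all genes. For pH this prior counted for 2.62 degrees of freedom beside the 3 residual. The spread between cultures was hidden by pooling, and the number of arrays limits precision. The fit was tested on simulated data. All genes and lists were chosen with earlier results of these data known. Named were all members and genes of the other acid-base lists passing the pH test (otherwise the brightest of a list). Also named were the 3 genes most like the member with the largest pH difference, and the listed chaperones Bsg, Emb and Nptn. The hypoxia genes named were chosen after their values were seen.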

Additional observations from a re-analysis of the deposited data

Results flagged for a closer look

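Among the 4 arrays at pH 7.4, Slc4a3 read 14.1 in the control line at 4 h, far below the 31.1 and 33.4 of the TDAG8 line at 4 h and 12 h and the 31.9 of the control line at 12 h. This gap, by Dixon's criterion, is wider than the 95% critical value for a group of 4, a criterion that chance alone meets in about 1 in 20 groups. It was applied to each of the 8 tested genes at each pH, and only this group met it. The 4 arrays of a group differ in line and time, so they are not replicates. The reading bears on the pH difference of Slc4a3 at 4 h in the control line, which was 0.40, against -0.27 in the TDAG8 line. Without that pair the mean pH difference of Slc4a3 was -0.79 (adjusted p = 0.106, limma), against -0.49 with it.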

How the results depend on the processing

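The count of members passing the pH test over all pairs was 0, and with every pair left out in turn it stayed 0, but it was 1 (Slc4a2) with median centring, with the values as deposited, a stricter filter (60th percentile), pseudocounts of 7.7 or 32, a variance trend with robust estimation, the block dropped, or time added to the pH term. At 12 h it was 2, against 1 with the stricter filter (Slc4a3 removed), 1 with the mean of all probe sets and 1 without either 4 h pair. It was 0 with no filter, where no gene passed. Without a 12 h pair only 1 pair is left at 12 h, and the calls were lost. Each probe set tested added the dim second probe set of Slc16a1, whose 12 h pairs were higher at pH 6.4. For the pH response at 12 h against that at 4 h it was 0, and 1 with trend and robust estimation (Slc4a2). Slc16a1 turned to 0.040 with median centring, 0.00064 as deposited and 0.069 with the mean of probe sets, Slc9a8 to 0.20 with the mean of probe sets. Leaving out pairs gave -0.25 to 0.014 for Slc16a3, and -1.02 to 0.0026 for Slc4a2 in the interaction. Of all genes, the pH test called 1220 and 0 to 3397 under the alternatives (0 without either 12 h pair), the line test 146 and 4 to 881, the 12 h test 2843 and 0 to 4551, and the test of the pH response at 12 h against 4 h called 0 and up to 1836. Higher genes were 44.6% of pH calls, 32.4% with median centring and 33.1% as deposited. The cause of these shifts was not tested. Signals near the pseudocount (Car2, Car9, Car12) limit what can be read from those genes.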
